A study of Homo sapiens with 10 samples.

Results

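Solute carriers are the membrane proteins that move nutrients, ions, metals, vitamins and metabolites into, out of and within cells, and their genes carry symbols that begin with SLC and a family number. The 212 genes described here were chosen by symbol and by signal: every gene with an annotated symbol of SLC followed by a digit was represented by its probe set with the highest mean log2 signal, and was kept if its raw signal averaged at least 50 over the 10 arrays of the study. They were 212 of 376 such genes on the array, and of 19775 genes in all. The other 164 averaged below 50. Another 12 SLC genes were only on probe sets that carry several gene symbols and were not named from them. The limit of 50 fell between SLC39A8 at 53.2 and SLC1A7 at 53.6, just inside, and SLC30A8 at 49.7 and SLC9A3-AS1 at 49.3, just outside. SLC26A2, SLC25A24 and SLC6A14 were put in by name because earlier results of these data were known, so their values are given as a description with no test, and counts of called genes are given over the other 209 members. Of the 212, 202 encode carrier proteins, 6 are long non-coding RNAs with the symbol of a neighbouring carrier gene, 1 is a pseudogene and 3 encode proteins named for a neighbour or partner.

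The cells were SKBR3, an established human breast carcinoma line with amplified HER2 (ERBB2) and a mutant p53 protein. All were grown in medium with charcoal-stripped serum, which is low in steroid hormones, and all were transfected with an siRNA, directed against the bacterial LacZ gene in the control (LacZi) or against p53 (p53i). Each siRNA had 2 untreated arrays, labelled as biological replicates, and 1 array at each of 8, 20 and 50 h with 100 nM calcitriol (D3), the hormonal form of vitamin D. D3 was added 48 h after the siRNA by the series text, or 24 h by the sample text. Untreated arrays are not labelled with a harvest time, so an effect of D3 and one of culture time cannot be told apart, and nothing states separate cultures for the D3 arrays, so p-values measure the spread between these samples, which may be technical. A single line and a transient transfection limit what the groups model.

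Carriers work by alternating access: a binding site opens to one side of the membrane and then to the other, and transport against a gradient is paid for by a second solute, often sodium or protons. Families are specialised by substrate and by membrane. The SLC1, SLC7 and SLC38 families carry amino acids, SLC2 carries hexoses, SLC25 spans the inner mitochondrial membrane, SLC30 moves zinc out of the cytosol and SLC39 into it, and SLC35 supplies nucleotide sugars to the Golgi apparatus and the endoplasmic reticulum. Calcitriol acts through the vitamin D receptor, which binds DNA as a dimer with RXR at paired half-sites and is best known for raising calcium and phosphate uptake in intestine and kidney.

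Values are MAS5 signals, linear intensities scaled by array, and differences are on the scale log2(signal + 16), with standard errors (SE) from limma. A gene was called when its Benjamini-Hochberg adjusted p over all 12023 genes tested was below 0.05. Median array signals lay between 35.7 and 44.3. The luminal and HER2 markers summed to 67101 to 99715 on the 10 arrays, while CDH1, one of the 7, reached at most 23.9. Marker lists of leukocytes, fibroblasts, endothelium, adipocytes and liver had summed signals of 56.8 to 169, 333 to 529, 93.9 to 179, 21.9 to 63.4 and 22.6 to 326, and of 7 carriers that mark other tissues 6 had a median below 50. The 3'/5' ratio of the ACTB control probe sets, which rises as RNA is degraded, was 4.46 ± 0.523 on LacZi arrays and 6.22 ± 1.77 on p53i arrays (SD, n = 5 each, two-sided exact permutation p = 0.0714), and was highest on the second untreated p53i array (8.72) and the p53i 20 h array (7.11). The siRNA target itself was not analysed here, so the labels were not checked by it.

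The members spanned mean signals from 53.2 to 6532 (median 313). Over the 10 arrays the median member moved over a log2 range of 0.81, and untreated duplicates differed by a median of 0.19 with LacZi and 0.27 with p53i. In 6 members the LacZi duplicates were at least 2-fold apart, and in 9 members the p53i duplicates were. Since the signal limit used all arrays, a member could pass through the groups where it was high: 11 members averaged below 50 in LacZi, p53i, untreated or D3 arrays, 8 of them in the untreated arrays, where SLC1A3 and SLC6A14 are among them. SLC44A4 averaged below 50 in LacZi and in D3 arrays. No count over the members is therefore read as a property of the whole family.

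The largest difference with D3 among all 212 genes was that of SLC26A2, the sulfate transporter of the plasma membrane that feeds the sulfation of proteoglycans and is mutated in diastrophic dysplasia. In LacZi cells its signal was 160.9 and 157.3 untreated, then 401.6, 900.3 and 1664 at 8, 20 and 50 h. In p53i cells it was 104.3 and 93.2 untreated, then 220, 373.8 and 710.3 at those times. The 6 D3 arrays were all above the 4 untreated arrays, and at each time the p53i array was below its LacZi counterpart. The log2 differences from untreated cells went from 1.15 ± 0.17 at 8 h through 2.08 at 20 h to 2.96 ± 0.17 by 50 h, and the mean of the times was 2.30 in LacZi and 1.82 in p53i cells. Its other probe sets gave 1.37 and 1.25 with D3. Over all conditions p53i minus LacZi was -0.90 ± 0.12. The gene was named for inclusion with this pattern known, so these values support nothing by themselves.

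SLC6A14, a sodium- and chloride-driven carrier of neutral and basic amino acids, was low until the last time. Its signals in LacZi cells were 58.8 and 56.6 untreated, then 75.3, 109.3 and 292.5 at 8, 20 and 50 h. In p53i cells they were 34.4 and 42.8 untreated, then 15.9, 38.4 and 173.9. Only the 50 h arrays stood above all others in p53i cells, and each p53i array was below its LacZi counterpart. The log2 difference was -0.23 ± 0.28 at 8 h and 1.93 ± 0.28 at 50 h. As for SLC26A2, no test is given.

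Among the 209 other members, 12 were called for D3 as the mean of the 3 times (5.74%), 9 higher and 3 lower. They include SLC1A3 (higher) and SLC44A4 (lower), which became members through the arrays where they were high. Both are also among the calls at 50 h, and SLC1A3 at 20 h, so these counts are partly fixed by the choice of members. Over all genes tested 529 were called (4.4%), 1.99% higher and 2.41% lower, and 4.76% of genes with a mean signal of at least 50. The median D3 difference was 0.05 over the members and -0.00 over all genes. By time, 0 members passed at the first time (8 h), 2 at 20 h and 10 after 50 h (7 higher, 3 lower, 4.78%), against 0.175%, 0.591% and 4.31% of all genes, the last made up of 1.83% higher and 2.48% lower. At 8 h the smallest adjusted p among members was 0.317. An unadjusted limma p below 0.05 was found for 23 members (11%) and for 902 of all genes (7.5%). The 12 calls fell to 3 without the first untreated LacZi array or without the LacZi 20 h array, to 4 without the p53i 8 h array, to 5 without the LacZi 50 h or the p53i 20 h array, to 6 without the first untreated p53i or the LacZi 8 h array, and to 7 without the p53i 50 h array. The 10 calls at 50 h fell to 1 without the p53i 50 h array, to 2 without the LacZi 50 h array, to 4 without the LacZi 20 h array, to 5 without the first untreated LacZi or the p53i 20 h array and to 6 without either 8 h array, and rose to 16 without the second untreated p53i array. The 2 calls at 20 h, SLC31A1 and SLC1A3, fell to 0 without the first untreated LacZi array or any one of the 20 or 50 h arrays and to 1 without the second untreated LacZi array or either 8 h array, and rose to 3 and 4 without the first and second untreated p53i arrays. Without the first untreated p53i array 2 members, SLC4A7 and SLC44A5, were called at 8 h. The share of all genes called in each leave-one-out fit is not given, so these changes are not read as a trait of the members.

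**Figure D1:**
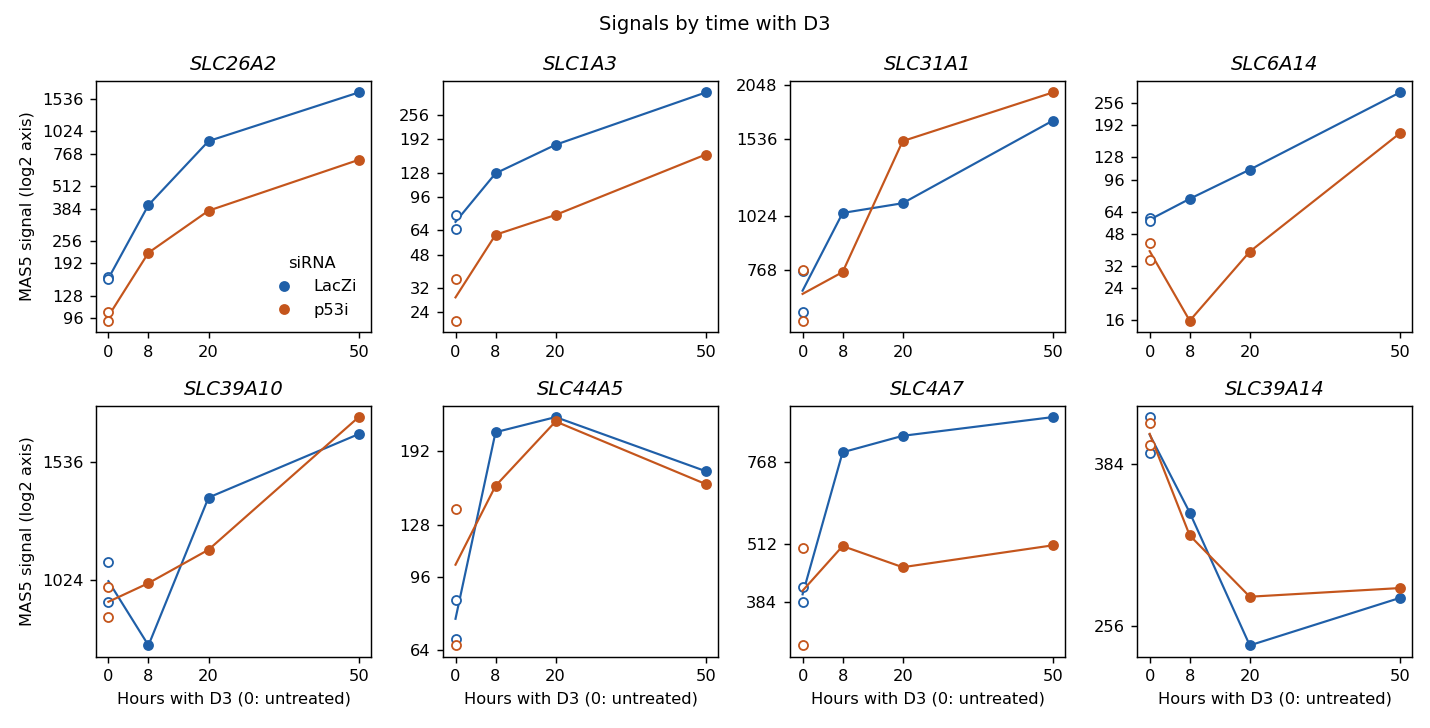
MAS5 signal (vertical log2 axis) against hours with D3 for 8 solute carrier genes in LacZi (blue) and p53i (orange) cells, with open circles for the 2 untreated arrays of each siRNA, filled circles for single arrays and lines from the untreated mean. SLC26A2 went from 160.9 and 157.3 to 1664 in LacZi cells and SLC1A3 from 76.8 and 65.1 to 334.1, with p53i arrays below LacZi arrays for both, while SLC31A1 rose to 1693 and 1965 with both siRNAs.

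SLC1A3, the glial-type glutamate and aspartate carrier EAAT1, rose with D3 and fell with p53i. Its signals were 76.8 and 65.1 in untreated LacZi cells and 126.9, 178.6 and 334.1 at 8, 20 and 50 h. With p53i they were 35.7 and 21.7 untreated and 60.8, 77.1 and 158.9 with D3. Within each siRNA all D3 arrays were above both untreated arrays, and each p53i array was below its LacZi counterpart, in 4 of 4 matched comparisons. The D3 difference was 1.29 ± 0.16 (adjusted p = 0.00156), going from 0.76 at 8 h through 1.12 at 20 h to 2.00 ± 0.22 at 50 h (adjusted p = 0.000593), and it was 1.30 in LacZi and 1.29 in p53i cells. The siRNA difference was -0.98 ± 0.16 (adjusted p = 0.00541). Its untreated arrays averaged 49.8 ± 25.5 (SD, n = 4) and its D3 arrays 156 ± 98.4 (SD, n = 6), so it reached the limit of 50 through the D3 arrays, and its D3 difference is partly fixed by that choice. The test itself was run over all 12023 genes. Its D3 calls over the times and at 50 h were kept with no filter on the genes tested. They were also kept in every leave-one-out fit and under every other alternative that measured them. Dropping that filter changed the genes tested and not the members, so it does not answer the choice by signal. The D3 values and their stability are therefore given as a description. The siRNA call was kept in every leave-one-out fit but lost with the ACTB ratio as a covariate, without the 2 arrays of the highest ratio and with 8 group means. Untreated p53i signals were near background, and the other probe set, with a mean of 7.02, was not used.

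SLC31A1, the high-affinity copper importer CTR1, rose with D3, by 0.85 in LacZi and 0.95 in p53i cells. It gave 613.8 and 763.7 in untreated LacZi cells and 1039, 1094 and 1693 with D3, and 587.5 and 766.6 in untreated p53i cells and 759.8, 1519 and 1965 with D3. Only the p53i 8 h array lay among the untreated values. The D3 difference was 0.90 ± 0.13 (adjusted p = 0.00382), rising from 0.38 at 8 h to 0.91 at 20 h (adjusted p = 0.0423) and 1.41 ± 0.17 at 50 h (adjusted p = 0.00125), while p53i minus LacZi was 0.04 ± 0.13. Its other probe sets gave D3 differences of 0.63 and 0.81. The call over the 3 times was kept without any single array and under every alternative run.

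Other rises with D3 were smaller or less stable. SLC44A5, a member of the choline transporter-like family, gave 84.2 and 67.7 untreated and 213.7, 232.3 and 172.1 with D3 in LacZi cells, and 139.5 and 65.5 untreated and 158.7, 226.8 and 160.3 with D3 in p53i cells. All D3 arrays were above all untreated ones, by 1.03 ± 0.19 (adjusted p = 0.0145), and the call was lost without the first untreated LacZi or the LacZi 20 h array. SLC67A1 (also known as SLC22A18), a polyspecific carrier gene of the imprinted 11p15 region, gave 1260 and 1156 untreated and 1670, 1575 and 1893 with D3 in LacZi cells, and 1488 and 1572 untreated and 1773, 1950 and 2195 with D3 in p53i cells. It rose by 0.43 ± 0.07 (adjusted p = 0.0114) with no overlap between D3 and untreated arrays. The call was kept without any single array but lost with median centring, with no trend and with 8 group means.

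SLC4A7, the sodium-bicarbonate cotransporter NBCn1 that brings base into the cell, gave 412.8 and 383.4 untreated and 807.9, 876.9 and 962.7 with D3 in LacZi cells. In p53i cells it gave 501.9 and 308.7 untreated and 506.3, 455.7 and 508.2 with D3, so the D3 arrays lay within or just above the untreated pair. The D3 difference was 0.71 ± 0.17 over both siRNAs (adjusted p = 0.0371), 1.11 in LacZi and 0.30 in p53i cells, and the difference between siRNAs was -0.81 ± 0.26, with an unadjusted p of 0.00896 and no call after adjustment. The D3 call was lost without any one array other than the first untreated p53i array. The remaining rises were in SLC2A11 (a hexose carrier, GLUT11) by 0.55 ± 0.12 (adjusted p = 0.029), SLC38A12 by 0.53 ± 0.12 (adjusted p = 0.0321, higher in 5 of 6 matched comparisons), SLC22A23 (an orphan of the organic ion family) by 0.46 ± 0.11 (adjusted p = 0.0415) and SLC35E1 by 0.29 ± 0.07 (adjusted p = 0.0406). In this order, their calls were lost in 8, 7, 9 and 8 of 10 leave-one-out fits. Other probe sets of SLC35E1 gave D3 differences from -0.023 to 0.36, with 0.025 for the one of second-highest signal.

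The 3 falls with D3 were in 3 families. SLC39A14, the zinc and manganese importer ZIP14, gave 432.4, 395.1, 403.3 and 425.9 on the untreated arrays, and 340.3, 243.8 and 274.6 with D3 in LacZi and 321.3, 275.4 and 281.5 in p53i cells. No D3 array reached an untreated one, and the difference was -0.50 ± 0.10 (adjusted p = 0.0166). That call was lost without any one of 3 arrays. A second probe set of the gene, with a mean of 40.0, gave 0.31. SLC2A12, the hexose carrier GLUT12, differed by -0.63 ± 0.16 (adjusted p = 0.0418), from 182 ± 30.2 untreated (SD, n = 4) to 112 ± 14.4 with D3 (SD, n = 6), also with no overlap. Its call was lost without 9 of the 10 arrays in turn. SLC44A4, a choline transporter-like protein that carries thiamine pyrophosphate, differed by -0.82 ± 0.20 (adjusted p = 0.0395) at signals of 31.8 to 128.8, where MAS5 values are noisy. It averaged below 50 in D3 arrays and became a member through the untreated arrays. Its D3 difference is partly fixed by that choice and is given as a description. The call was lost without 9 of the 10 arrays in turn.

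At 50 h, 3 of the 18 zinc carriers were called, beside 10 of the 209 members and 4.31% of all genes, and the class was not tested against the rest. SLC39A10, the plasma membrane zinc importer ZIP10, gave 1092 and 950.6 untreated and 819.2, 1360 and 1691 at 8, 20 and 50 h in LacZi cells, and 1000 and 902.3 untreated and 1014, 1137 and 1793 in p53i cells. The 50 h arrays were the highest with both siRNAs and the 8 h arrays were near the untreated values. Its difference was -0.11 ± 0.13 at 8 h and 0.81 ± 0.13 at 50 h (adjusted p = 0.00567). It was the 1 member of 209 called for 50 h minus 8 h, by 0.92 ± 0.15 (adjusted p = 0.0433; 0.133% of all genes were called), and that count was 0 without any one array other than the untreated p53i arrays. SLC30A1, the exporter that moves zinc from the cytosol out of the cell, was picked here after its values were seen. It was higher at 50 h by 0.75 ± 0.18 (adjusted p = 0.0389), while SLC39A14 was lower by 0.55 ± 0.13 on this scale (adjusted p = 0.0377). The 50 h calls of SLC30A1 and SLC39A14 were each lost in 8 of 10 leave-one-out fits. With the second-highest probe set these genes gave 0.48 and -0.083 at 50 h and no call. Of the 18 zinc carriers, the median 50 h difference was 0.10, against 0.07 over the 209 members and -0.01 over all genes.

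The other 50 h calls were those of SLC1A3, SLC31A1 and SLC44A4 above, SLC67A1 (0.58 ± 0.10, adjusted p = 0.0091), SLC38A12 (0.72 ± 0.16, adjusted p = 0.0302), SLC16A4 and SLC24A3. SLC16A4, an orphan member of the monocarboxylate family, gave 141.3 and 275.3 untreated and 231.7, 372.6 and 490.2 with D3 in LacZi cells and 188.7 and 150.4 untreated and 163.3, 259.2 and 299.8 in p53i cells, a difference at 50 h of 1.01 ± 0.22 (adjusted p = 0.0288). SLC24A3, a potassium-dependent sodium-calcium exchanger also picked after its values were seen, was at 172.9 and 198.1 at 50 h and between 261.1 and 345.2 on the other arrays, a difference of -0.64 ± 0.15 (adjusted p = 0.0331). Its second probe set, with a mean of 249.9, gave -0.031 at 50 h and no call.

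At 8 h no member was called, and the smallest p-values were those of SLC44A5 (0.98 ± 0.26), SLC35E1 (0.36 ± 0.10) and SLC35A3, the Golgi UDP-N-acetylglucosamine carrier (0.47 ± 0.13). The members whose log2 signals followed those of SLC26A2 most closely over the 10 arrays were SLC1A3 (Pearson r = 0.962), SLC30A7 (0.901), SLC23A1 (0.885), SLC16A4 (0.875) and SLC19A2 (0.859). These are descriptions over 10 arrays that share the siRNA and D3 groups. Of these 5, SLC30A7, a zinc carrier of the early secretory pathway, averaged 766 ± 33.8 untreated (SD, n = 4) and 940.5 ± 69.3 with D3 (SD, n = 6), and missed the threshold at adjusted p = 0.0581. Its D3 difference was 0.29 on this probe set, and 0.0039 and 0.19 on its other probe sets (means of 434 and 80.4).

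The 250 bases before annotated start sites were read from RefSeq promoter windows of GRCh38.p14 for the 14 D3-higher members (SLC26A2, SLC6A14 and the 12 called as higher over the 3 times or at 50 h), to show the regions in which receptor half-sites were looked for. The windows of SLC26A2, which had the largest D3 difference, and of 3 called members with a match are given 5' to 3' on the gene's strand, with half-sites in capitals. The window of SLC26A2 is chr5:149960508-149960757 on the plus strand, that of SLC1A3 is chr5:36606356-36606605 on the plus strand, that of SLC4A7 is chr3:27456779-27457028 on the minus strand and that of SLC67A1 is chr11:2902170-2902419 on the plus strand.
SLC26A2: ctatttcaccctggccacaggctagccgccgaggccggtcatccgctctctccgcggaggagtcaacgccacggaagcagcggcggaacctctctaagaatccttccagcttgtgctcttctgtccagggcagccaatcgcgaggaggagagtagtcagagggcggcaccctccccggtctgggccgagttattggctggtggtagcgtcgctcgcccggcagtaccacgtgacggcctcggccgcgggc
SLC1A3: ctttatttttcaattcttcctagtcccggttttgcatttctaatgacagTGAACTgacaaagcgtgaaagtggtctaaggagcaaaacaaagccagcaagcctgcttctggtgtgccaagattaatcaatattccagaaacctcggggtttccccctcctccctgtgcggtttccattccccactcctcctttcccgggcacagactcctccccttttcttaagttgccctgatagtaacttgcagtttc
SLC4A7: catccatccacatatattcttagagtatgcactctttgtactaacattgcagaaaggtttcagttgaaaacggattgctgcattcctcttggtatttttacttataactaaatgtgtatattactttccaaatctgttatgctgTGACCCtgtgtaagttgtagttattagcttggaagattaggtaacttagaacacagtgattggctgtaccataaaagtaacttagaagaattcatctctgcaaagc
SLC67A1: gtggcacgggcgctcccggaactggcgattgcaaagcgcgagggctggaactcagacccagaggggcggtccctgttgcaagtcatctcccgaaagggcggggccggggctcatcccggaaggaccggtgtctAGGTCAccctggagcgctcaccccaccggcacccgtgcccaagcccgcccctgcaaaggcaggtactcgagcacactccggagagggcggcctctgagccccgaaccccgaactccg
The letters searched, on both strands and with overlaps kept, were those of the consensus half-site, AGGTCA, and of variants that receptors of this class also bind. The first of these variants to be searched was AGTTCA. The second, searched in the same way, was GGGTCA. The third and last of them was GGTTCA. In the windows shown, SLC67A1 held AGGTCA 117 bases before an annotated start, SLC1A3 held a reverse match 201 bases before and SLC4A7 one 106 bases before, and the SLC26A2 window held none. Windows of SLC1A3 and SLC67A1 at other annotated starts held none, and another SLC4A7 window held a match 135 bases before its start. SLC2A11, the remaining gene with a match, is not shown and held matches 246, 112 and 99 bases before annotated starts. Of 21 windows of these 14 genes, 6 (28.6%) held a half-site, in 4 genes, compared with 78 of 256 windows of all members with one (30.5%) and 33.8% of 35116 windows over all genes. A direct repeat of half-sites spaced by 3 bases was in 0 of the 21 and in 23 windows in all (0.0655%). A match describes letters in these windows and not a bound site.

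Between siRNAs, 18 of the 209 members were called (8.61%), 13 higher and 5 lower with p53i. Over all genes 780 of 12023 were called (6.49%; 3.39% higher, 3.1% lower), and 6.98% of those with a mean signal of at least 50. The median difference was 0.01 over the members and -0.00 over all genes. Each of the 18 had the same sign in 4 of 4 matched comparisons, which follows in part from the call, since both used the same arrays. The count was 8 without either untreated LacZi array, 6 without either 8 h array, 3 without either 20 h array and 5 without either 50 h array. With the ACTB ratio as a covariate 3 members were called, SLC40A1, SLC15A1 and SLC6A8, and without the 2 arrays of the highest ratio 2 were called, SLC40A1 and SLC15A1. The part of RNA integrity in the other calls was not tested further. For these leave-one-out and ACTB fits the share of all genes called is not given.

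SLC40A1, ferroportin, the iron exporter of the plasma membrane, showed the largest rise. It gave 501.5 and 530.5 untreated and 370, 452.5 and 601.4 with D3 in LacZi cells, and 990.4 and 1609 untreated and 1099, 1278 and 1168 with D3 in p53i cells. The arms did not overlap: 491 ± 86.6 with LacZi and 1229 ± 237 with p53i (SD, n = 5 each). The difference was 1.29 ± 0.13 (adjusted p = 0.000287) and -0.12 ± 0.13 for D3. SLC15A1, the proton-coupled oligopeptide carrier PEPT1, gave 239.1 and 182.4 untreated and 184.8, 186 and 156 with D3 in LacZi cells, and 472.6 and 478.9 untreated and 317, 312.5 and 266.9 with D3 in p53i cells. All p53i values lay above all LacZi values, by 0.88 ± 0.12 (adjusted p = 0.00234). Both calls were kept without any single array. The second probe set of SLC40A1 (mean 94.1) gave 0.41 and no call. A weak second probe set of SLC15A1 (mean 38.0) gave -0.073.

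**Figure D2:**
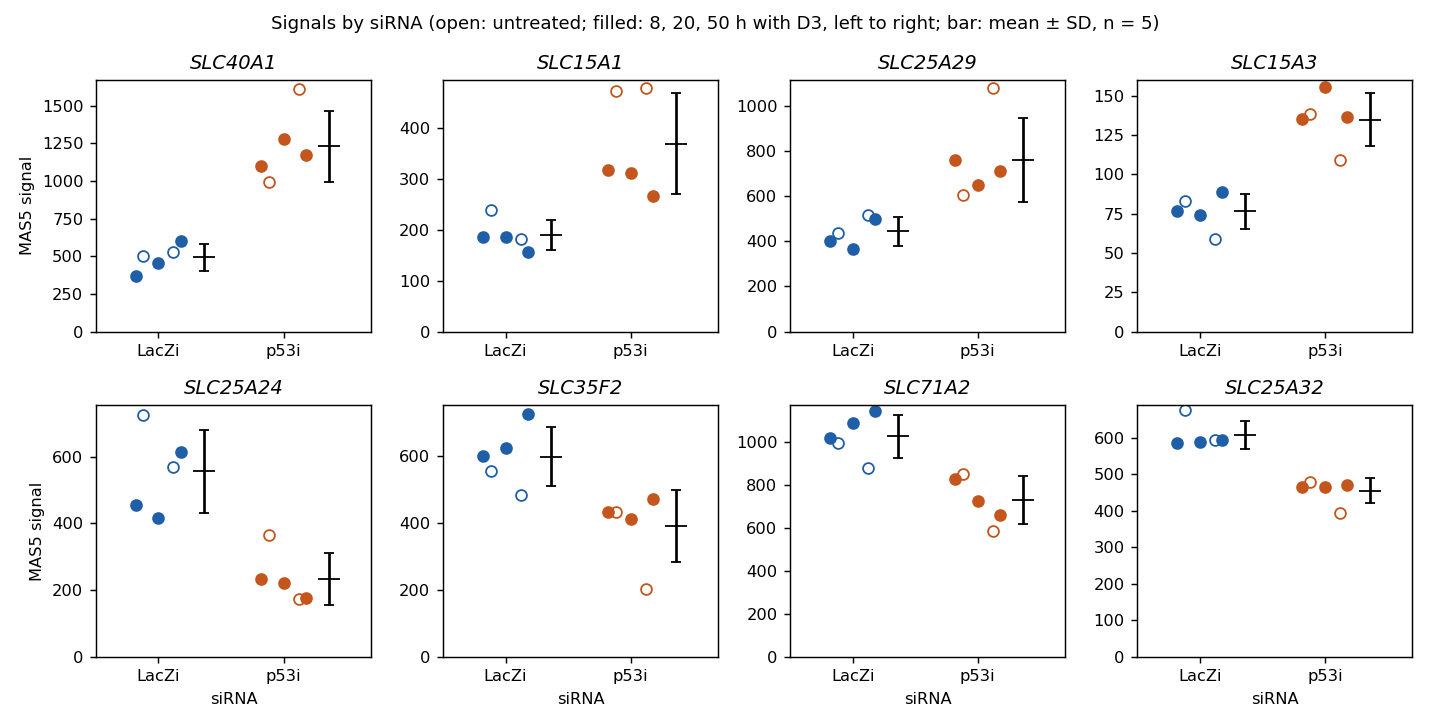
MAS5 signal (linear axis from 0) on the 10 arrays for 8 solute carrier genes by siRNA, with open circles for untreated arrays, filled circles for 8, 20 and 50 h with D3 from left to right, and black bars for the mean ± SD of the 5 arrays. SLC40A1 averaged 491 with LacZi and 1229 with p53i, SLC25A24 averaged 557 and 233, and the arms did not overlap in any of the 8 panels. The panels were chosen as genes called between siRNAs on these arrays or, for SLC25A24, by name. The lack of overlap follows in part from that choice, and its share over all genes was not counted.

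Of the 36 members of the mitochondrial class other than SLC25A24, 1 was called higher and 1 lower between siRNAs, beside 6.49% of all genes. SLC25A29, a carrier of basic amino acids, gave 437.4 and 517.3 untreated and 399.9, 363.9 and 499.6 with D3 in LacZi cells and 605.5 and 1080 untreated and 758.3, 649.6 and 709.9 with D3 in p53i cells, a difference of 0.74 ± 0.14 (adjusted p = 0.012) with no overlap. SLC25A32, which carries folate and FAD, averaged 608 ± 38 with LacZi and 455 ± 34.4 with p53i (SD, n = 5 each), a difference of -0.41 ± 0.09 (adjusted p = 0.0284). SLC25A24, the calcium-dependent ATP-Mg and phosphate carrier, was named for inclusion with its pattern known. It gave 726.8 and 568.7 untreated and 455.6, 416.2 and 615.9 with D3 in LacZi cells and 364.8 and 172.7 untreated and 233.6, 220.6 and 175.5 with D3 in p53i cells. Every p53i array was below every LacZi array, a log2 difference of -1.22 ± 0.19, and the untreated p53i duplicates were 2-fold or more apart.

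The remaining rises were spread over families. SLC15A3, a lysosomal carrier of histidine and small peptides, rose by 0.71 ± 0.16 (adjusted p = 0.0225), from 76.3 ± 11.1 to 135 ± 16.6 (SD, n = 5 each). SLC27A1, a fatty acid transport protein, rose by 0.65 ± 0.18 (adjusted p = 0.0483), and SLC2A6, the lysosomal hexose carrier GLUT6, by 0.54 ± 0.13 (adjusted p = 0.0357). SLC37A1 (a glucose-6-phosphate exchanger of the endoplasmic reticulum) rose by 0.48, SLC22A23 by 0.45, SLC35C1 (the Golgi GDP-fucose carrier) by 0.42, SLC38A2 (the amino acid carrier SNAT2, induced when amino acids are scarce) by 0.34, SLC35E1 by 0.28 and SLC44A2 by 0.27, with adjusted p from 0.0257 to 0.0476. SLC6A8, the creatine transporter, averaged 1259 ± 82.4 with LacZi and 1711 ± 153 with p53i (SD, n = 5 each), and rose by 0.44 ± 0.09 (adjusted p = 0.0144). Its probe set, like those of SLC38A2 and SLC35E1, belongs to a type whose probes can match related transcripts. Other probe sets gave 0.30 and 0.32 for SLC6A8, 0.10 and 0.20 for SLC38A2 and -0.35 to 0.13 for SLC35E1, and those of SLC22A23 and SLC35C1 with the second-highest signal gave -0.20 and -0.27. The other probe set of SLC37A1 (mean 40.7) gave 0.0022. The calls of SLC27A1 and SLC35C1 were lost in all 10 leave-one-out fits. Those of the other genes in this paragraph were lost in 6 to 9 of them.

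The other 4 falls besides SLC1A3 were SLC35F2, SLC71A2, SLC25A32 and SLC30A9. SLC35F2 gave 556, 484.3, 599.2, 621.9 and 725.3 on the LacZi arrays and 432.9, 202.3, 433.2, 409.9 and 470.5 on the p53i arrays, a difference of -0.64 ± 0.16 (adjusted p = 0.0385). The lowest value was that of the second untreated p53i array, the array with the highest ACTB ratio. SLC71A2 (also known as MFSD14B) averaged 1024 ± 101 with LacZi and 728 ± 112 with p53i (SD, n = 5 each), a difference of -0.49 ± 0.11 (adjusted p = 0.0275). SLC30A9, a mitochondrial zinc carrier, differed by -0.39 ± 0.10 (adjusted p = 0.0376), and a second probe set gave 0.10.

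In untreated cells alone, with 2 arrays a group, 0 of 209 members were called between siRNAs, against 0.00832% of all genes, and 33 had an unadjusted limma p below 0.05 (15.8% of members, 11.5% of all genes). The smallest p-values were those of SLC40A1 (1.27), SLC15A1 (1.13) and SLC35D2 (0.68), an uncalled nucleotide-sugar carrier. Without the first untreated p53i array the count was 7 (share of all genes in that fit not given). For a D3 difference that depends on the siRNA, 0 of 209 members and 0% of all genes were called, with 10 members (4.78%) and 645 genes (5.36%) at an unadjusted limma p below 0.05. The smallest p-values belonged to SLC5A5, the sodium-iodide symporter (1.99 ± 0.48 on signals of 13.0 to 152.5), SLC35H1 (-0.72 ± 0.18) and SLC35D2 (-0.66 ± 0.20). Without the first untreated p53i array 2 members were called (share of all genes not given), SLC2A4RG and SLC4A11, both named after their values were seen.

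**Figure D3:**
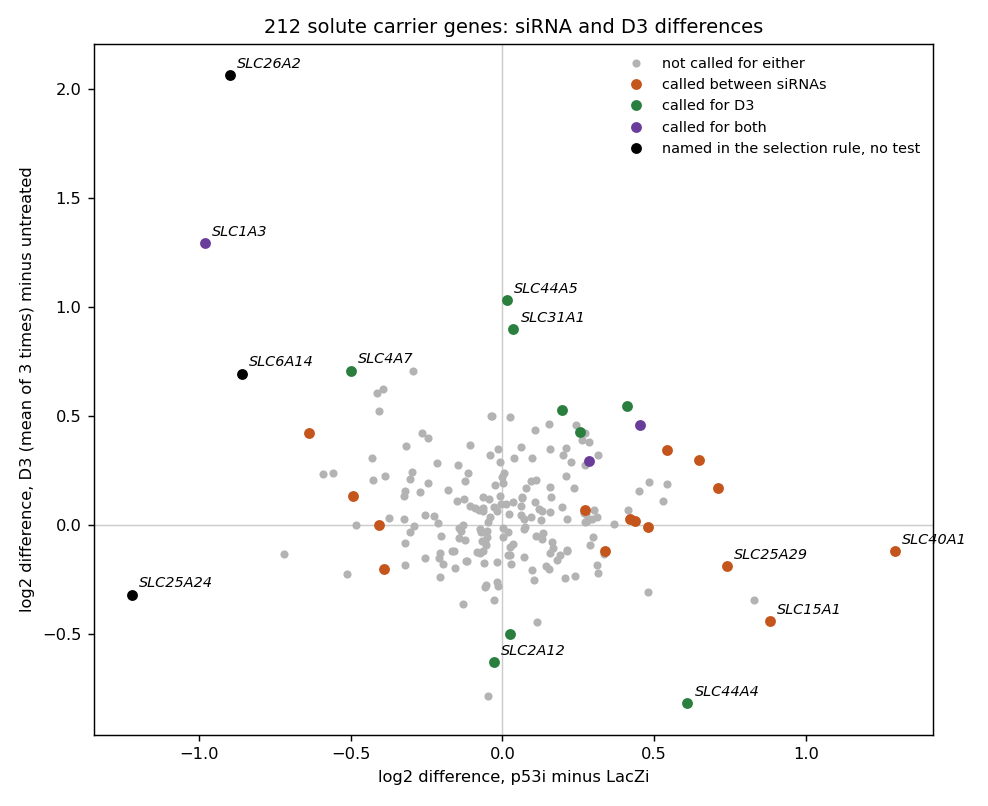
Log2 difference between p53i and LacZi (horizontal) and between D3, as the mean of 3 times, and untreated cells (vertical) for the 212 genes, with colours for calls at an adjusted p below 0.05 and black for the 3 genes named in the selection, which have no test. SLC26A2 lies at -0.90 and 2.06, SLC1A3 at -0.98 and 1.29 and SLC40A1 at 1.29 and -0.12, and most genes lie near 0 on both axes.

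Classes were assigned by symbol, and 10 members that are not carriers stand with the family they are named for. The counts by class are small and were not tested against the background of 6.49% of all genes called between siRNAs, 4.4% for D3 and 4.31% at 50 h. Those for D3 and at 50 h include SLC1A3 and SLC44A4, members through the arrays where they were high. In the mitochondrial class of 37, which holds 35 carriers, 1 rose and 1 fell between siRNAs besides SLC25A24 and 0 were called for D3, and its carriers other than SLC25A24 had D3 differences from -0.24 to 0.36. The phosphate carrier SLC25A3 and the adenine nucleotide carrier SLC25A5, both needed for oxidative ATP production, gave 0.07 ± 0.08 and -0.12 ± 0.06 between siRNAs and -0.01 ± 0.08 and -0.17 ± 0.06 with D3. In the amino acid class of 29, which holds 28 carriers, 2 of the members other than SLC6A14 rose and 1 fell between siRNAs and 2 rose with D3. SLC7A5, the large neutral amino acid carrier LAT1, gave 0.27 ± 0.13 between siRNAs and 0.42 ± 0.14 with D3, and SLC38A1 gave 0.03 ± 0.07 and -0.18 ± 0.07, neither called.

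Among 19 nucleotide-sugar carriers and relatives, 2 rose and 1 fell between siRNAs and 1 rose with D3. Among 18 zinc carriers 1 fell between siRNAs and 1 fell with D3. In the hexose class of 17, which holds 16 carriers, 2 rose between siRNAs, and 1 rose and 1 fell with D3, while SLC2A1, the basal glucose carrier GLUT1, gave 0.24 ± 0.10 and -0.24 ± 0.11 and was not called. Among 12 fatty acid, acetyl-CoA and choline carriers 2 rose between siRNAs, and 1 rose and 1 fell with D3. The 11 carriers of iron, copper, magnesium and heme had 1 rise each, SLC40A1 between siRNAs and SLC31A1 with D3, and the divalent metal carrier SLC11A2 gave 0.31 ± 0.12 between siRNAs (not called). The 10 vitamin carriers, the 4 nucleoside carriers and the phosphate class of 4, which holds 3 carriers, had 0 calls between siRNAs, for D3 and at 50 h. In the sulfate, anion and bicarbonate class of 9, which holds 8 carriers, 1 member other than SLC26A2 rose with D3 (SLC4A7), and SLC26A11, a sulfate carrier, gave -0.06 ± 0.11. None of the 10 long non-coding, pseudogene and neighbour-named members was called between siRNAs, for D3 or at 50 h.

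**Figure D4:**
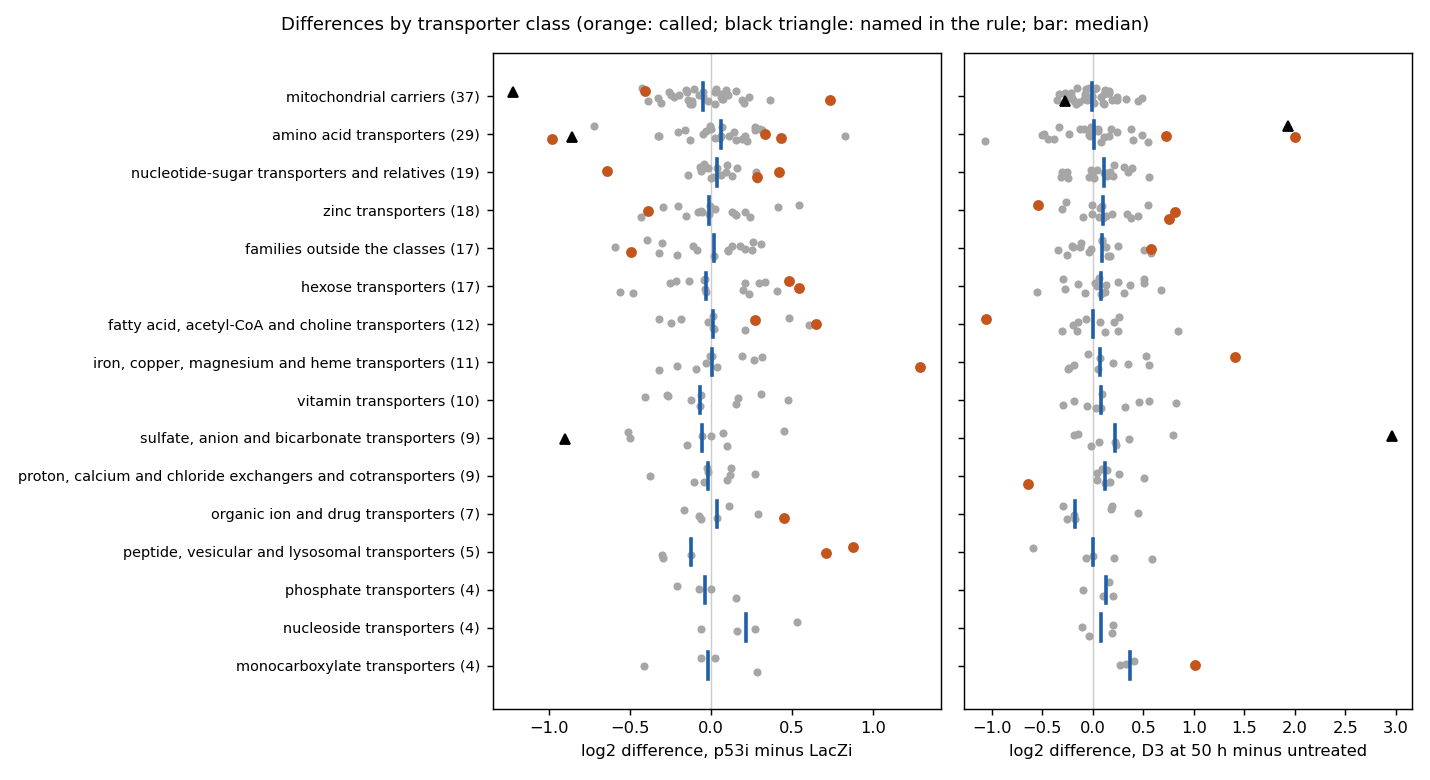
Log2 differences of the 212 genes by substrate class, between p53i and LacZi (left) and between 50 h with D3 and untreated cells (right), with the number of genes beside each class, orange for called genes, black triangles for the 3 genes named in the selection (classes are by symbol and include the non-coding members) and blue bars for class medians. SLC40A1 at 1.29 on the left and SLC1A3 at 2.00 on the right lie far from their class medians, and the vitamin class holds no orange point.

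Genes that act with carriers were looked at in 4 lists, whose counts stand beside 6.49% of all genes called between siRNAs and 4.4% for D3. Of 18 tested genes for sulfate activation and sulfation, which use the sulfate that SLC26A2 imports, 0 were called between siRNAs and 1 rose and 2 fell with D3. SULT2B1, a cytosolic sterol sulfotransferase, gave 91.7 and 111 untreated and 187, 303 and 370 with D3 in LacZi cells, and 104 and 94.4 untreated and 118, 224 and 257 with D3 in p53i cells. All D3 arrays were above all untreated arrays, by 1.08 ± 0.14 (adjusted p = 0.00175), and no array or alternative ended the call. CHST15, a chondroitin sulfotransferase, differed by -0.77 ± 0.13 (adjusted p = 0.0113; lost without the first untreated LacZi array) and PAPSS2, which makes the sulfate donor, by -0.65 ± 0.16 (adjusted p = 0.0436; lost without 8 of the 10 arrays in turn). The list median with D3 was 0.02.

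Of 19 genes of the ATF4 amino acid response, which controls several amino acid carriers, 2 rose with D3, CEBPB by 0.48 ± 0.09 (adjusted p = 0.0145) and CTH by 0.60 ± 0.13 (adjusted p = 0.0236), the list median was -0.14 and 0 were called between siRNAs. CEBPB lost its call without the first untreated LacZi or the LacZi 20 h array, and CTH without any one of 6 arrays. Of 17 partners and gradient-setting pumps, 2 rose and 2 fell between siRNAs. OXSR1, a kinase that regulates chloride cotransporters, was lower with p53i, with a difference of -0.46 ± 0.07 (adjusted p = 0.00419) and kept its call without any single array, and NEDD4L, a ubiquitin ligase of sodium channels and carriers, rose by 0.65 ± 0.15 (adjusted p = 0.0288), a call lost without any one of 7 arrays. Of 26 ABC transporters and SLCO carriers, 4 rose between siRNAs, with ABCA3 highest at 1.02 ± 0.18 (adjusted p = 0.00756), while the list median was -0.06. With the ACTB ratio as a covariate, or without the 2 arrays of the highest ratio, none of the 4 (ABCA3, ABCA5, ABCC5 and SLCO4A1) was called, and neither was NEDD4L, while OXSR1 was. With D3, ABCC3, an exporter of organic anions, gave 473 and 347 untreated and 547, 695 and 1268 with D3 in LacZi cells and 384 and 445 untreated and 496, 752 and 921 with D3 in p53i cells. It rose by 0.83 ± 0.12 (adjusted p = 0.00307; 0.63 and no call with the second-highest probe set) and by 1.37 ± 0.16 at 50 h (adjusted p = 0.000788), and ABCG1 differed by -0.40 ± 0.09 (adjusted p = 0.0337; lost without 8 of the 10 arrays in turn).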

How the data were processed

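RNA from 10 SKBR3 samples, extracted with Trizol and labelled from 6 ug, was hybridised to 1-colour Affymetrix arrays of 54675 probe sets, per the labels. The deposited values are linear intensities, MAS5 signals per the submitters' processing notes (version not given in the sources used here). Each array's mean without the lowest and highest 2% was 200.03, so they were taken as scaled and no further normalization was applied.

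The platform annotation named 41097 probe sets with 1 symbol, 1801 with more than 1 and 11777 without any, and 0 member symbols differed from RefSeq (GRCh38.p14). Each gene was given its probe set with the highest mean, and the upper 50% of probe sets by mean log2 signal (above 35.4) were kept, leaving 12023 genes. Signals were converted to log2(signal + 16), which understates changes of weak genes. Tests used limma 3.58.1 in R 4.3.3 (lmFit, eBayes with trend, two-sided), and p-values were adjusted by Benjamini-Hochberg over the 12023 genes. The models were siRNA plus D3 time (5 residual degrees of freedom), the same with a siRNA-by-D3 term (4) and 8 group means for untreated cells (2). With 1 array per D3 group, each such array is assumed to have the same spread as the rest. The script was tested on simulated data. The number of arrays limits the precision.

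The members, classes and gene lists were chosen with earlier results of these data known. Genes were named by rule: called members with the largest differences and the same sign in every matched comparison, up to 5 smallest p-values for other contrasts (3 where none passed), the 2 highest signals per class (used to pick names only, since signals of different probe sets are not comparable), the 2 genes on each side of the limit of 50, up to 4 called genes per list and the 5 most like SLC26A2. Alternatives covered normalization, offset, filter, probe set, trend, model, replicate block, ACTB ratio and leaving out each array. Figures used matplotlib 3.10.9.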

Additional observations from a re-analysis of the deposited data

How the results depend on the processing

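Calls near the threshold depended on the setting. Of 43 called values of named members, 7 kept their call in every leave-one-out fit, 4 under every other alternative and 3 in all: SLC1A3 and SLC31A1 for D3, and SLC1A3 at 50 h. The cause was not tested. SLC1A3 became a member through its D3 arrays, so its D3 values stand here as a description. Counts below are over 209 members or as many as an alternative measured. The share of all genes called at each of these settings is not given. A rise or fall of a member count is therefore not read as a trait of the members. Between siRNAs (18), the count was 9 with no filter, 7 with the mean of all probe sets, 0 with the second-highest probe set, 5 with no trend, 1 with 8 group means, 3 with the ACTB ratio as covariate and 2 without the 2 arrays of the highest ratio, and 3 to 23 in leave-one-out fits. For D3 (12), it was 7 with median centring, 5 with no filter, 7 with the mean of probe sets, 2 with the second-highest probe set, 3 with no trend, 2 with 8 group means, 20 with the ACTB covariate, 7 without those 2 arrays and 3 to 16 in leave-one-out fits. At 50 h (10), it was 4 with no filter, 2 each with the second-highest probe set, no trend and 8 group means, and 1 to 16 leaving out 1 array. At 20 h (2), it was 0 with median centring, no offset, no filter, the second-highest probe set, 8 group means or without those 2 arrays, 1 with the mean of probe sets or no trend, 4 with the ACTB covariate and 0 to 4 leaving out 1 array. At 8 h (0) it was 0 to 2 leaving out 1 array, for the interaction (0) 0 to 2, and for untreated cells (0) 0 to 7, with 1 under median centring. For 50 h minus 8 h (1) it was 0 with median centring, no offset, no filter, either probe-set alternative, no trend or 8 group means, and 0 to 1 leaving out 1 array.

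With the untreated replicate number as a replicate block, the counts were 30 between siRNAs, 21 for D3, 1 at 8 h, 6 at 20 h, 20 at 50 h, 4 for 50 h minus 8 h and 10 in untreated cells. This term marked only the untreated arrays of replicate 2, and every D3 array stood with replicate 1. Differences from untreated cells at this setting were therefore taken against the replicate 1 untreated arrays alone, which changes the baseline. Replicate numbers were not taken as pairs because only 2 pairs exist and no label says that a number marks a shared batch. The difference of replicate 1 from replicate 2 correlated between siRNAs at 0.22 over 12023 genes (positive). Signs turned for SLC35E1 between siRNAs with the mean of probe sets (-0.0056), and with the second-highest probe set for SLC22A23 (-0.20), SLC30A9 (0.10), SLC15A1 (-0.073), SLC35C1 (-0.27) and ABCA5 (-0.017) between siRNAs and for SLC39A14 with D3 (0.31). A signal near the filter of 35.4 lies close to background.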
